A study of Mus musculus with 8 samples.

Results

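Oxidative phosphorylation is carried out by 5 protein complexes in the inner mitochondrial membrane. Complexes I to IV pass electrons from NADH and succinate to oxygen and build a proton gradient, which complex V, the ATP synthase, uses to make ATP. All of these complexes except complex II, the succinate dehydrogenase, combine subunits encoded in the nucleus with subunits encoded by mitochondrial DNA, which is transcribed as long precursors that also carry the mitochondrial ribosomal RNAs. Neural stem cells and astrocytes are both known for a strong use of glycolysis, and neural stem cells for a rise of oxidative metabolism as they differentiate into neurons.

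The genes described here are the structural subunits of these complexes, chosen by symbol alone as protein-coding mouse genes named Nduf (a, b, c, s or v followed by a number, without the Ndufaf assembly factors), Sdha to Sdhd, Uqcr, Cox4 to Cox8, Atp5 or mt-. The rule found 98 genes in the GENCODE M21 annotation, and 97 of them were listed in both deposited tables, out of 47729 genes in the table of neural stem cells (NSCs) and 40562 in the astrocyte table. The nuclear genome encodes 84 of the 97, with 35 in complex I, 4 in complex II, 8 in complex III, 20 in complex IV and 16 in complex V, and 1 more, Atp5s, a coupling factor named for the ATP synthase. The other 13 are the mt- genes, with 7 in complex I, 1 in complex III, 3 in complex IV and 2 in complex V.

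RNA of C57BL/6 mice aged 10 weeks by their labels was sequenced from NSCs of the subventricular zone, grown as neurospheres, with 3 S89G-DMP1 and 3 wild type (WT) libraries, and from astrocyte cultures of the cortex, with 1 library of each genotype. S89G-DMP1 mice are homozygous knock-ins with a point mutation of dentin matrix protein 1 that removes a glycosylation site, made in C57BL/6J embryonic stem cells. Heterozygous males were mated with FLP females of a B6.129S4 strain to remove the selection cassette, and the controls were wild type C57BL/6 mice. Any part of these females' mitochondrial DNA in the mt- results was not tested. The authors' methods give 3 months as the age of the mice used for astrocyte culture. Nothing in the labels, which number them Trip1 to Trip3, says that the 3 NSC libraries of a genotype came from separate mice. The p-values therefore measure the spread between these libraries, which may be technical. The mean chi-square per gene between pairs of libraries was 1.07 to 1.51 within a genotype and 3.17 to 4.06 between genotypes. Counting error alone gives about 1.

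The NSC libraries held between 2354615 and 2588130 counted reads, and the WT and S89G-DMP1 astrocyte libraries 14008670 and 13016924. Of 7 microglia markers, Csf1r, Tyrobp, Itgam, C1qa and Cx3cr1 had 0 counts in every NSC library, and the 7 summed to at most 0.850 CPM. Of 6 fibroblast markers, Dcn, Col1a2 and Lum had 0 counts, and the 6 summed to 34.0 to 37.7 CPM in WT and 21.5 to 33.1 CPM in S89G-DMP1 NSCs, nearly all from Fbln1. The summed CPM of 8 neural progenitor markers was 3993 to 4205 in WT and 4410 to 4501 in S89G-DMP1 NSCs. That of 8 astrocyte markers was 1460 to 1508 in WT and 1978 to 2030 in S89G-DMP1 NSCs, with 3 of 6 tested called higher (Aldh1l1, Gja1 and Slc1a3), and the part of this difference in the NSC results was not tested. The astrocyte cultures differed in cell type markers. The 8 astrocyte markers summed to 117 CPM in the WT and 1043 CPM in the S89G-DMP1 library. Of the 8, 1 was at least 2-fold lower in the latter. The 6 fibroblast markers summed to 4892 CPM and 2065 CPM, with 1 at least 2-fold higher in S89G-DMP1. In the same order, progenitor markers summed to 845 and 2217 CPM, microglia markers to 468 and 803 and ependymal markers to 6.00 and 222. Endothelial markers summed to 193 and 70.9 CPM, and mural markers to 1876 and 2632 CPM. Of 5 counted endothelial and 5 counted mural markers, 1 of each list was at least 2-fold higher in S89G-DMP1 and 3 at least 2-fold lower. Aqp4, an astrocyte water channel, had 8 counts in the WT library and 4051 in the other. The WT astrocyte library was thus low in the markers of its label, and in bulk samples fewer cells of a type and less RNA per cell cannot be told apart. Dmp1 had 16 to 21 counts in the WT NSC libraries and 3 to 6 in the S89G-DMP1 ones, while the astrocyte libraries had 2 in WT and 119 in S89G-DMP1. Neither gives a check of a point mutation.

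In NSCs the nuclear subunits had closely similar levels in both genotypes. Counts were scaled with TMM factors, and genotype was tested with edgeR's quasi-likelihood test over 11194 genes that passed a filter on low counts, with Benjamini-Hochberg adjustment over all of them. Of the 84 nuclear genes, 77 passed the filter. None was called higher and 1, Cox8a, was called lower in S89G-DMP1 NSCs at an adjusted p under 0.05, while 7.07% of all tested genes were called higher and 8.76% lower. At an unadjusted p under 0.05 there were 10 nuclear subunits, 5 higher and 5 lower, where 27.8% of all tested genes stood at that level, and DESeq2 called 0 of them at an adjusted p under 0.05, against 6.41% of the genes it tested. The median log2 fold change of the 77 was -0.0069, and that of all tested genes 0.0025.

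The 95% interval of the log2 fold change lay within 1.5-fold in either direction for 73 of the 77 nuclear subunits, and within 1.2-fold for 39, where 72.7% and 19.9% of all tested genes had such intervals. The subunits were counted more precisely than the average gene, with a median standard error of 0.0887 against 0.120. The 4 subunits with wider intervals were Atp5g2, Atp5s, Cox6b2 and Ndufb4. The normalised levels of the genotypes did not overlap between libraries for 7 of the 77 subunits, or 9.09%, against 30.7% of all tested genes.

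**Figure D1:**
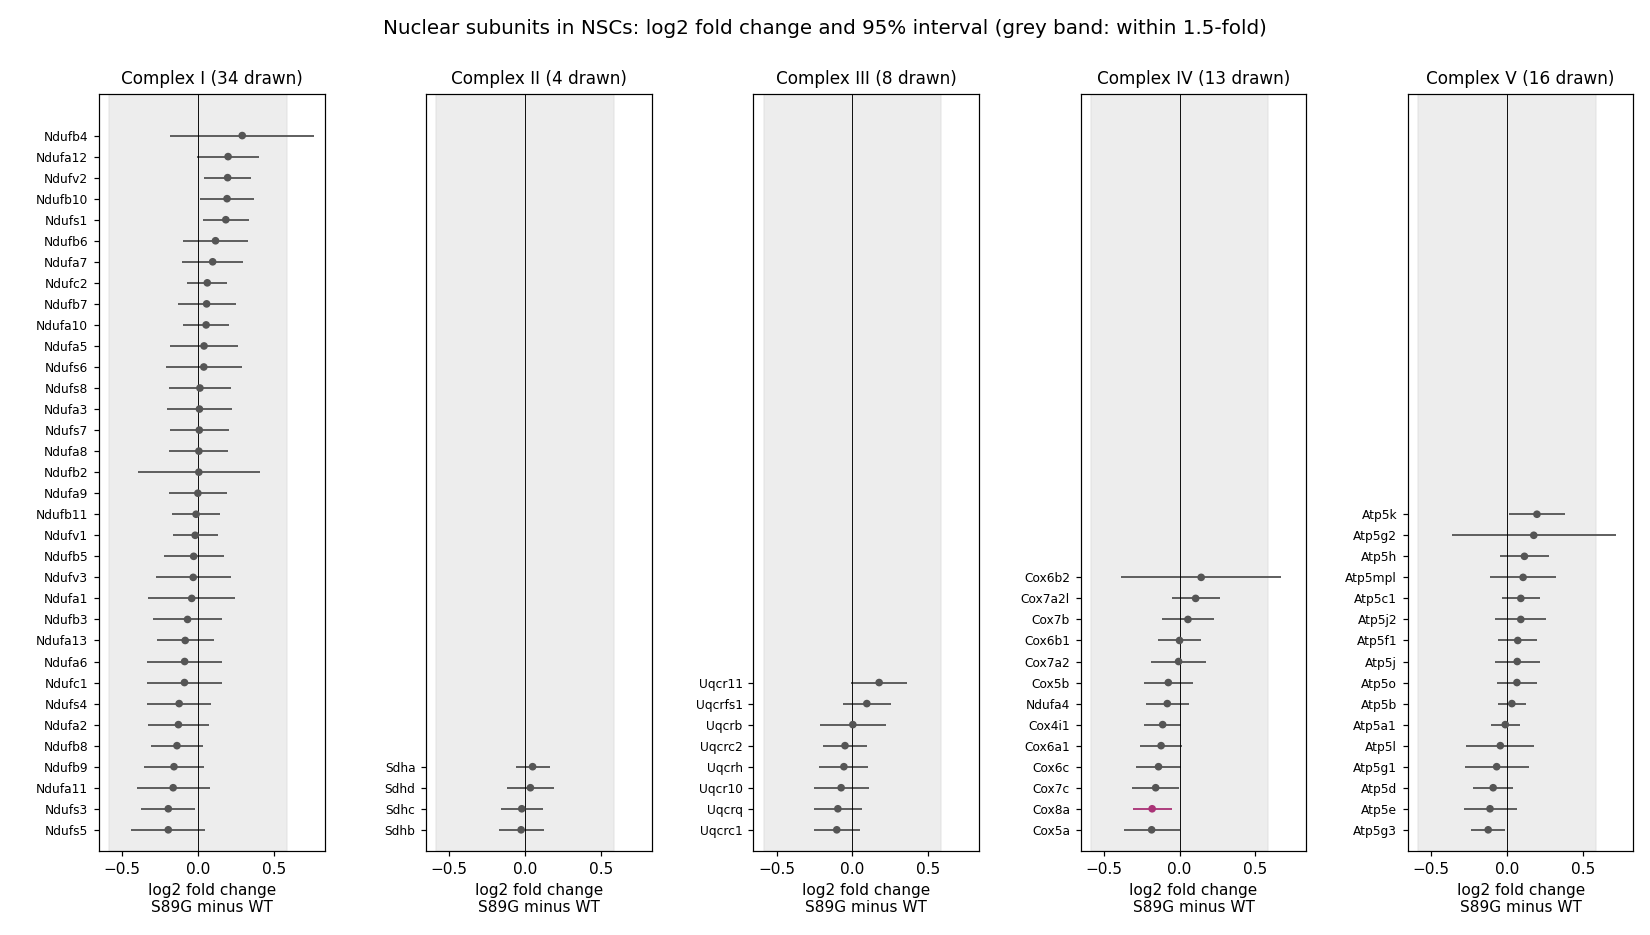
Log2 fold change (S89G-DMP1 minus WT, x axis) of tested nuclear subunits of complexes I to V in NSCs, with 3 libraries per genotype, 1 gene per line. Points are edgeR estimates, lines are 95% intervals, the grey band marks 1.5-fold in either direction, and Cox8a alone is drawn in purple for an adjusted p under 0.05. Atp5s, at 0.71, is not drawn.

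Complex I takes electrons from NADH, and its nuclear core of 7 subunits carries the flavin and the iron-sulfur clusters. None of its 35 nuclear genes passed the test, and their median log2 fold change was -0.0009. In the core, Ndufv2 was counted 269, 286 and 265 times in WT and 269, 314 and 325 times in S89G-DMP1 libraries. Its log2 fold change was 0.20 (SE 0.078, edgeR adjusted p = 0.0799). The largest core subunit, Ndufs1, had 277, 322 and 306 counts in WT and 321, 294 and 379 in S89G-DMP1 libraries, with a log2 fold change of 0.18 (edgeR adjusted p = 0.0933), and its normalised levels did not overlap. Ndufs3 lay in the other direction with 216, 219 and 220 counts in WT and 190, 176 and 187 in S89G-DMP1 libraries (log2 fold change -0.20, edgeR adjusted p = 0.131). Most of the Ndufs3 transcript, 75.7%, is shared at 98% identity or more with a pseudogene, so its count is uncertain. Ndufs7, Ndufs8 and Ndufv1 had log2 fold changes between -0.019 and 0.013.

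Complex II oxidises succinate and is the one complex made wholly of nuclear subunits. Its 4 genes lay close to 0, with log2 fold changes of 0.05 for the flavoprotein Sdha, -0.03 for the iron-sulfur subunit Sdhb, and -0.02 and 0.03 for the membrane anchors Sdhc and Sdhd. All 4 intervals lay within 1.2-fold. Sdha, for instance, had 837, 941 and 900 counts in WT and 855, 857 and 967 in S89G-DMP1 NSCs. In complex III, the cytochrome bc1 complex, 0 of 8 nuclear genes were called and the median was -0.053. The Rieske iron-sulfur protein Uqcrfs1 was at 0.10 and the core protein Uqcrc1 at -0.10, neither past the threshold.

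Complex IV, cytochrome c oxidase, held the single nuclear call. Cox8a, its smallest widely expressed subunit, was at 249, 304 and 303 CPM in WT and 236, 257 and 263 CPM in S89G-DMP1 libraries, so that the first WT library lay inside the range of the others. The log2 fold change was -0.18 (SE 0.065, 95% interval -0.31 to -0.052, edgeR adjusted p = 0.0444). The call was lost without S89G-DMP1 library 1 or 2 or WT library 2 or 3, with a highest adjusted p of 0.239, and with no filter, and DESeq2 gave an adjusted p of 0.288. Of the 13 tested nuclear genes of complex IV, 10 had a negative log2 fold change, as had 5532 of all 11194 tested genes. Their median in complex IV was -0.081. The summed level of all 20 was 1885 ± 95.7 CPM in S89G-DMP1 and 2003 ± 131 CPM in WT NSCs (SD, n = 3), a difference smaller than the spread between WT libraries. In complex V, 10 of 16 genes lay above 0, beside 5662 of all 11194 tested genes. The median in complex V was 0.068, and no gene was called. Its summed level was 4848 ± 208 CPM in S89G-DMP1 and 4797 ± 85.6 CPM in WT NSCs (SD, n = 3). Its catalytic subunits Atp5a1 and Atp5b were at -0.01 and 0.03. Atp5s had the largest log2 fold change of any nuclear gene here, 0.71 (SE 0.30, edgeR adjusted p = 0.103), from 12, 14 and 10 counts in WT and 15, 23 and 19 in S89G-DMP1 libraries, so counting error was large. The ATP synthase inhibitor Atpif1, which the rule leaves out, was at -0.10 (edgeR adjusted p = 0.515).

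**Figure D2:**
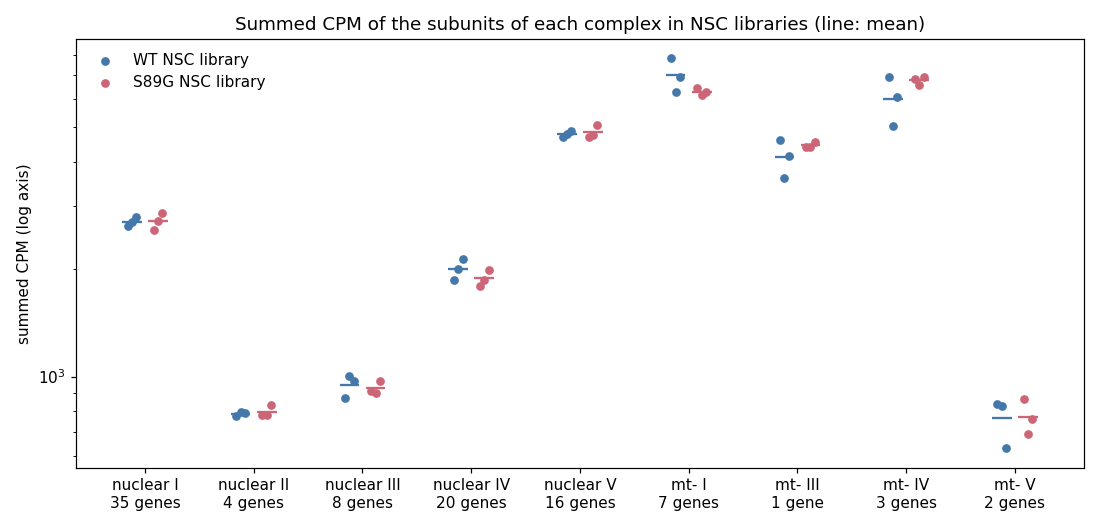
Summed CPM (log axis) of the nuclear and mt- subunits of each complex in the 3 WT and 3 S89G-DMP1 NSC libraries. Points are libraries and lines are means. The points of the genotypes overlap for every sum drawn, and the spread is widest among WT libraries for the mt- sums.

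Complex IV has paired isoforms, some of which are known from muscle, lung or testis rather than brain. In NSCs the common forms Cox4i1, Cox6a1, Cox6b1, Cox7a2, Cox7a2l, Cox7b and Ndufa4 were tested and none was called. Cox4i2, Cox7b2 and Cox8c had 0 counts in all 6 NSC libraries, and a count of 0 allows up to 3, and Cox8b, Cox7a1, Cox6a2 and Ndufa4l2 had at most 1, 3, 5 and 2 counts in any of them. Cox6b2, known from testis, passed the filter with 18, 16 and 25 counts in WT and 22, 15 and 26 in S89G-DMP1 libraries.

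Among the mt- genes, 3 that encode membrane subunits of complex I were called lower in S89G-DMP1 NSCs and 1 of complex IV higher. Of 13 genes, 12 passed the filter. Those called lower were mt-Nd1, mt-Nd2 and mt-Nd3 and the one called higher was mt-Co1, beside the 8.76% and 7.07% of all genes above, and DESeq2 called 1 of the 12. The median log2 fold change was -0.039. The total share of reads on the 13 genes was 1.79% ± 0.221 in WT and 1.83% ± 0.0395 in S89G-DMP1 NSCs (SD, n = 3), so the difference between genotypes was smaller than the spread between WT libraries. That share was 2.02%, 1.58% and 1.78% in WT libraries 1 to 3 and 1.85%, 1.78% and 1.85% in the S89G-DMP1 libraries. WT library 1 was the highest and WT library 2 the lowest, with the S89G-DMP1 libraries between them.

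mt-Nd2, a membrane subunit of complex I, was called lower in every fit to the counts. It was at 1551, 1232 and 1347 CPM in WT and 1069.5, 1094 and 1064 CPM in S89G-DMP1 libraries, with no overlap. The log2 fold change was -0.35 (SE 0.052, 95% interval -0.46 to -0.25, edgeR adjusted p = 3.1e-07). It kept its call with each library left out and with DESeq2 (adjusted p = 0.00834). The neighbouring mt-Nd1 was at 3095, 2453 and 2716 CPM in WT and 2479.6, 2354 and 2488 CPM in S89G-DMP1 libraries, where WT library 2 overlapped the S89G-DMP1 range. Its log2 fold change was -0.17 (SE 0.050, edgeR adjusted p = 0.00977), and the call was lost without WT library 1 (-0.08), without S89G-DMP1 library 2 and with DESeq2 (adjusted p = 0.456). mt-Co1, the catalytic subunit of complex IV, was at 6882, 5008 and 6063 CPM in WT and 6799, 6567 and 6882 CPM in S89G-DMP1 libraries, where WT library 1 was as high as the highest S89G-DMP1 library. Its log2 fold change was 0.17 (SE 0.053, edgeR adjusted p = 0.0162), lost without WT library 2 (0.06, adjusted p = 0.491), without S89G-DMP1 library 3, with the length trend removed (adjusted p = 0.0795) and with DESeq2 (adjusted p = 0.633).

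Since the WT libraries differed in their total of mt- reads, each gene was also expressed as a share of the reads on all 13 mt- genes, a description chosen after the counts had been seen. mt-Nd1, mt-Nd2, mt-Nd5, mt-Co1 and mt-Cytb varied less between WT libraries on this scale than by CPM, while mt-Atp8, at 2.66%, 3.57% and 2.45% in WT, still varied. mt-Nd2 took 7.70%, 7.82% and 7.58% of the mt- reads in WT and 5.77%, 6.13% and 5.75% in S89G-DMP1 NSCs. mt-Nd1 took 15.4%, 15.6% and 15.3% in WT and 13.4%, 13.2% and 13.5% in S89G-DMP1 NSCs. mt-Co1 took 34.2%, 31.8% and 34.1% against 36.7%, 36.8% and 37.2%. None of these 3 genes overlapped between genotypes on this scale, which has no counterpart over all genes. By CPM, 2 of the 12 tested mt- genes did not overlap (mt-Nd2 and mt-Nd3), or 16.7%, beside 30.7% of all tested genes. As a share of mt- reads, mt-Cytb, the mitochondrial subunit of complex III, was likewise separate, at 22.8% to 23.4% in WT and 23.8% to 24.7% in S89G-DMP1 NSCs. mt-Nd5 was also separate, at 9.76% ± 0.288 in WT and 9.06% ± 0.0586 in S89G-DMP1 NSCs (SD, n = 3). So was mt-Nd3, at 0.0582% to 0.0834% in WT and 0.0262% to 0.0323% in S89G-DMP1 NSCs, with the limit given below. Shares of a fixed total are tied, so that a lower share of one gene raises the others. mt-Nd6, the one gene on the opposite strand, overlapped, at 2.03% ± 0.037 and 2.03% ± 0.036 (SD, n = 3). mt-Nd4, mt-Atp8, mt-Atp6, mt-Co2, mt-Co3 and mt-Nd4l overlapped as well.

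mt-Nd1 and mt-Nd2 stand first among the protein genes in the order of the mitochondrial genome, at chrM:2751-3707 and chrM:3914-4951 (GRCm38), after the ribosomal RNAs. The ribosomal RNA genes mt-Rnr1 and mt-Rnr2, which are no subunits, were listed in the NSC table and were also lower. mt-Rnr1 was at 199, 205 and 151 CPM in WT and 144, 144 and 103 CPM in S89G-DMP1 libraries (log2 fold change -0.51, edgeR adjusted p = 5.9e-06, DESeq2 adjusted p = 0.156). mt-Rnr2 was at 502, 459.7 and 449 CPM in WT and 405, 401 and 376 CPM in S89G-DMP1 libraries (log2 fold change -0.25, edgeR adjusted p = 0.000448, DESeq2 adjusted p = 0.00361). The levels of the genotypes did not overlap for either, nor for 30.7% of all tested genes. Both were counted below mt-Nd1 and mt-Co1, and the part of RNA selection during library preparation in these counts was not tested. From mt-Co1 onwards in genome order, mt-Nd3 was the only protein gene called lower.

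**Figure D3:**
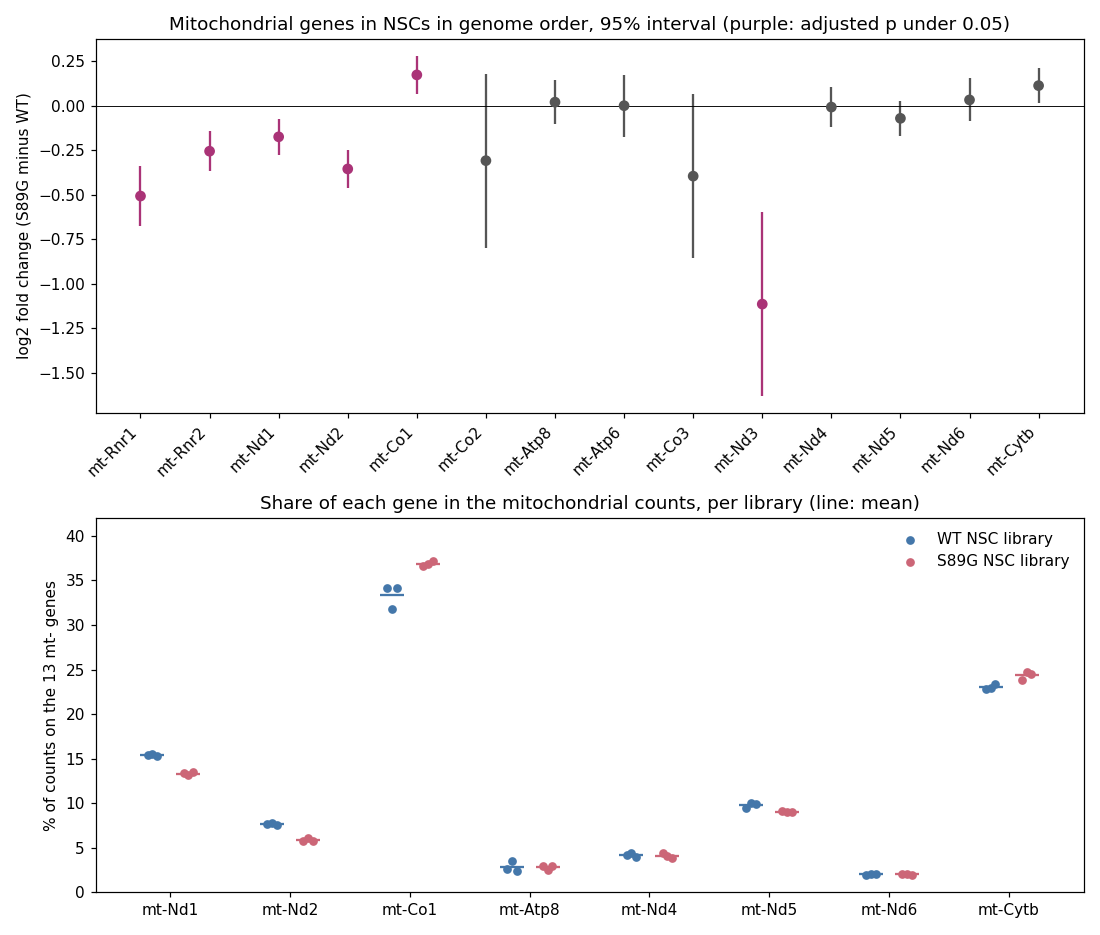
Upper panel, log2 fold change (S89G-DMP1 minus WT) with 95% interval of the mitochondrial ribosomal RNA and protein genes in NSCs in genome order, purple for an edgeR adjusted p under 0.05. Lower panel, percent of the reads on the 13 mt- genes taken by each of 8 genes, with points for libraries and lines for means. mt-Nd1 and mt-Nd2 sit lower and mt-Co1 and mt-Cytb higher in every S89G-DMP1 library than in any WT library.

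The mt-Nd3 result could not be separated from a nuclear copy of the gene. A stretch of mouse chromosome 1 carries near-identical copies of several mt- genes, annotated as unprocessed pseudogenes. Gm28438 (chr1:24612775-24613119, minus strand, GRCm38) matches mt-Nd3 (chrM:9459-9806) over 345 bases at 99.71% identity. The first 60 bases of both genes are shown because they hold the only difference in the match, T3C, counted from 1 at the first base of mt-Nd3, with mt-Nd3's base first. It is in capitals here, in sequences taken from the GENCODE M21 transcripts.
mt-Nd3: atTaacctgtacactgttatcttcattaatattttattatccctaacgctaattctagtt
Gm28438: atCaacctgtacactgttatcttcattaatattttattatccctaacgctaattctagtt

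Counts on mt-Nd3 were 28, 34 and 28 in the WT NSC libraries and 14, 11 and 15 in the S89G-DMP1 NSC libraries, with a log2 fold change of -1.11 (SE 0.26, edgeR adjusted p = 0.00102, DESeq2 adjusted p = 0.0654). Counts on Gm28438 went the other way, at 1, 3 and 1 in WT and 12, 12 and 13 in S89G-DMP1 libraries (log2 fold change 2.84, edgeR adjusted p = 3.7e-05). Neither gene overlapped between genotypes. The sum of both was 29, 37 and 29 in WT and 26, 23 and 28 in S89G-DMP1 libraries, all lower in the latter, with a log2 fold change of -0.25 (95% interval -0.69 to 0.18, edgeR adjusted p = 0.487). The astrocyte libraries showed the same division. The WT library had 312 counts on mt-Nd3 and 0 on Gm28438, and the S89G-DMP1 library 147 and 124. The copy therefore held 46.2%, 52.2% and 46.4% of the summed counts in the S89G-DMP1 NSC libraries and 45.8% (exact 95% interval 39.7 to 51.9, counting error only) in the S89G-DMP1 astrocyte library. In the WT libraries it held 3.45% to 8.11% in NSCs and 0% in astrocytes, where 0 of 312 counts allows up to 1.18% by the exact interval. The tables give no base calls, so the base that the reads carried at position 3 is not known here, and the part of the copy in the mt-Nd3 result was not tested beyond this sum.

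**Figure D4:**
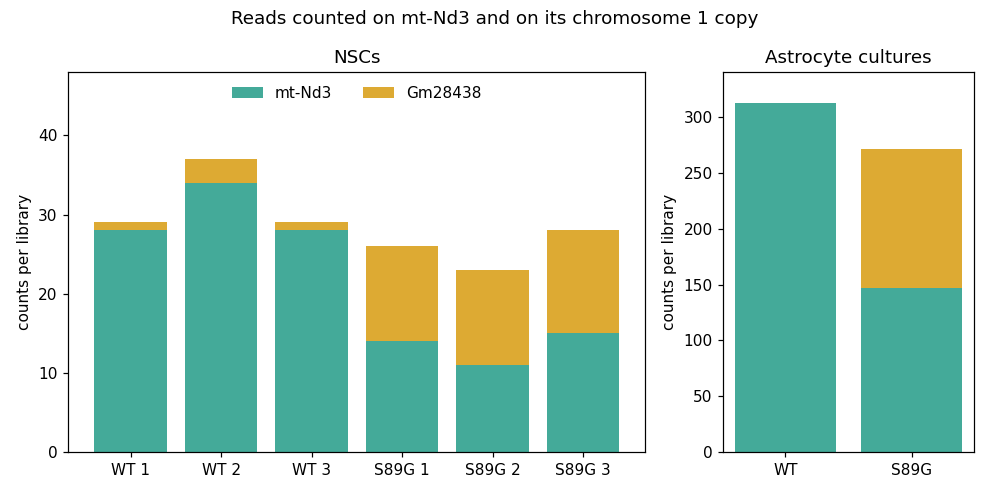
Counts per library on mt-Nd3 (green) and on its chromosome 1 copy Gm28438 (yellow), stacked, for the 6 NSC libraries and the 2 astrocyte libraries. The copy takes 45.8% to 52.2% of the sum in every S89G-DMP1 library and at most 8.11% in every WT library.

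Other mt- genes had such copies too. mt-Co1 and mt-Nd4 are matched over 31.3% and 63.6% of their length and were counted at high levels. mt-Co2, mt-Co3 and mt-Nd4l are matched by a copy without a difference over all but their last bases, and were counted at low levels. Per kilobase of gene, their mean level in WT NSCs was 16.1, 15.9 and 4.04 CPM, against 3873 CPM for mt-Co1, and mt-Nd4l did not pass the filter. mt-Atp6, with a copy of the same kind, was at 371 CPM per kilobase in WT NSCs, and was listed with 27 and 16 counts in the astrocyte libraries. How reads with several matches were handled is not given in the sources used here, and its part in these low counts was not tested. mt-Nd1, mt-Nd2, mt-Nd5, mt-Nd6, mt-Cytb and mt-Atp8 had no match of this kind among the annotated transcripts, and adding the copy's counts to mt-Co1 left its call in place (log2 fold change 0.17, edgeR adjusted p = 0.0184).

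In the astrocyte cultures, with 1 library per genotype, no difference has a replicate check. Ratios were taken from TMM-scaled CPM (prior count 2), and the 15680 genes that reached 10 counts in one library or the other were used. A change of 2-fold or more was found in 30.1% of them, upwards in the S89G-DMP1 library for 17.3% and downwards for 12.8%. Of 81 nuclear subunits counted, 1 was at least 2-fold higher (Cox6b2) and 2 at least 2-fold lower (Cox6a2 and Ndufa4l2), and 76 differed by less than 1.5-fold, as did 53.5% of all counted genes. Their median log2 ratio was 0.018, beside 0.010 for all counted genes. Scaled by library size alone the medians were 0.31 and 0.30, so the sign of a small ratio depends on the scale. The nuclear subunits together took 0.486% of the reads in the WT and 0.607% in the S89G-DMP1 library, while the TMM-scaled sums were 5381 and 5486 CPM. These ratios stand beside the differences in astrocyte, fibroblast and other cell type markers between the cultures, whose part in them was not tested.

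Cox6b2 had 204 counts in the WT and 602 in the S89G-DMP1 astrocyte library, with a log2 ratio after scaling of 1.37 (counting interval 1.14 to 1.61). Its authors' FPKM was 30.7 and 97.6, while its partner Cox6b1, the common form, was at 133 and 165 FPKM. Cox6a2, a heart and skeletal muscle form, had 23 and 3 counts, 8.72-fold higher in WT with a wide counting interval of 2.63 to 45.3. Ndufa4l2, a paralog of Ndufa4 known to respond to hypoxia, had 13 and 2 counts, 7.39-fold higher in WT (counting interval 1.67 to 67.4). Both had very few counts. Cox7b2 and Cox8c had 0 counts in both libraries and Cox4i2 had 11 in each.

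The next highest log2 ratios belonged to Ndufs4 (0.61, from 327 and 567 counts), Cox7c (0.52), Cox6c (0.40) and Ndufc2 (0.39). The next lowest belonged to Atp5h (-0.74, from 1851 and 1260 counts), Ndufb3 (-0.55) and Ndufa1 (-0.51). A pseudogene shares 71.1% of the Atp5h transcript, so that count is uncertain too. The 4 complex II subunits lay between -0.07 and 0.22, and the 7 core subunits of complex I between -0.14 and 0.32. The catalytic subunits of the ATP synthase were Atp5a1 at 0.33 and Atp5b at 0.11, and Atp5b was the nuclear subunit with the highest FPKM, at 693 and 915.

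The mt- genes were lower in the S89G-DMP1 astrocyte library under TMM scaling, with 11 of 12 counted genes below 0 and a median log2 ratio of -0.42. By library size alone the median was -0.13 and 3 of 12 were above 0. Only mt-Nd3 was at least 2-fold lower (-1.26, and -0.39 with the copy's counts added), and 0 were at least 2-fold higher. Their share of all reads was 2.38% in the WT and 2.27% in the S89G-DMP1 library. mt-Nd1, mt-Nd5 and mt-Cytb were at -0.43, -0.45 and -0.43, mt-Nd6 at -0.41 and mt-Nd2 and mt-Nd4 both at -0.34. mt-Co1, with the most counts, was at -0.27 and mt-Atp8 at -0.24. As a share of the mt- reads, mt-Nd2 was at 7.58% in WT and 7.68% in S89G-DMP1, unlike its lower share in S89G-DMP1 NSCs, while mt-Nd1 was at 12.2% and 11.6% and mt-Co1 at 36.7% and 39.1%, in the direction seen in NSCs. These differences between the cell types were not tested.

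**Figure D5:**
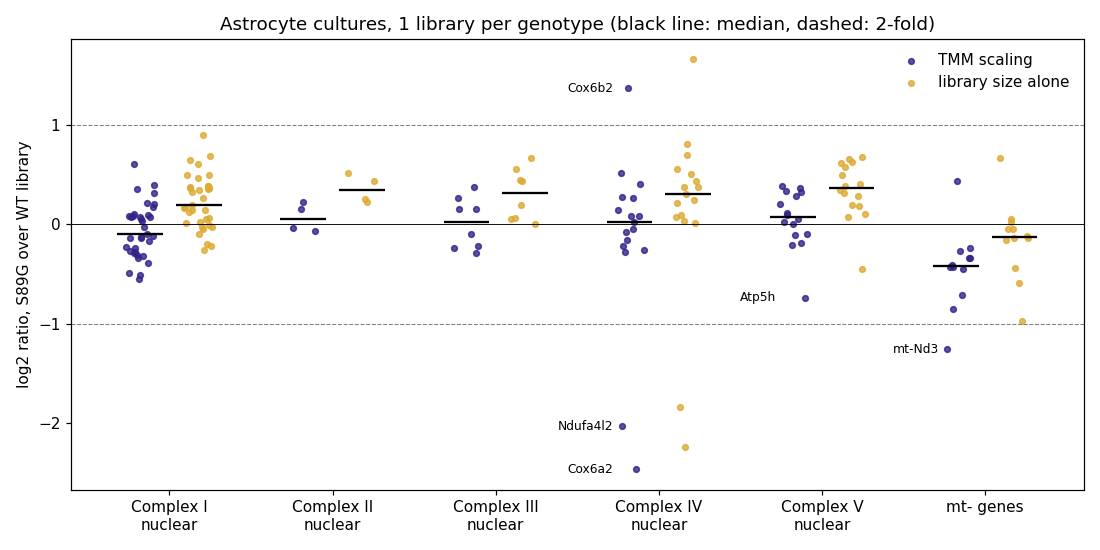
Log2 ratio of the S89G-DMP1 over the WT astrocyte library for each counted subunit, by complex for nuclear genes and together for mt- genes, under TMM scaling (blue) and by library size alone (yellow). Black lines are medians and dashed lines mark 2-fold. Most nuclear genes lie within 1.5-fold under TMM scaling, and the median of the mt- genes is -0.42 under TMM scaling and -0.13 by library size alone.

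Genes that build and support the complexes were listed from general knowledge and read from the same NSC fit, where 15.8% of all tested genes were called in either direction by edgeR and 6.41% by DESeq2. By edgeR, the shares called in the mitochondrial lists were at or below that of all genes. By DESeq2, the carriers and channels (1 of 13) lay slightly above it. Of 50 tested assembly factors, 2 rose and 1 fell. Ndufaf2 and Tmem70, which help assemble complex I and the ATP synthase, rose by 0.74 and 0.48 (edgeR adjusted p = 0.00192 and 0.00459), and Cox14, needed for complex IV, fell by 0.34 (edgeR adjusted p = 0.0416). DESeq2 called 0 of these 50. Of 76 mitochondrial ribosomal proteins, 1 rose, Mrpl42 (0.32), with 0 called by DESeq2, and the median was 0.12. Among 18 tricarboxylic acid cycle and pyruvate dehydrogenase genes, Cs (0.15) and Pdha1 (0.21), the citrate synthase and a pyruvate dehydrogenase subunit, rose, and DESeq2 called 1 of the 18. Of 13 carriers and channels, the outer membrane channel Vdac2 rose (0.25) and the mitochondrial creatine kinase Ckmt1 fell, from 21, 24 and 24 counts to 8, 10 and 9 (log2 fold change -1.29, edgeR adjusted p = 0.00114), and DESeq2 called 1 of the 13. None of 18 genes of mitochondrial DNA transcription and maintenance was called, with 1 at an unadjusted p under 0.05 and 0 by DESeq2, and none of 6 carriers and subunits outside the rule (0 at an unadjusted p under 0.05 and 0 by DESeq2), such as Cycs (-0.03) and Cyc1 (0.06). Cytosolic ribosomal proteins, measured for contrast, had 41 of 80 genes higher and 0 lower, beside 7.07% and 8.76% of all tested genes, and 20 called by DESeq2, with a median of 0.18, and the smallest adjusted p belonged to Rpl4, Rpl41, Rps2 and Rps3a1, with values between 0.31 and 0.32.

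Regulators of mitochondrial biogenesis were not called in NSCs in any of the 11 tested (1, Yy1, at an unadjusted p under 0.05, and 0 by DESeq2). Nrf1, Gabpa, Gabpb1, Esrra, Yy1 and Sp1, transcription factors known to act on these promoters, had log2 fold changes of -0.02, 0.12, 0.21, 0.01, 0.18 and 0.12. The coactivators Ppargc1a, Ppargc1b and Pprc1 had -0.11, -0.50 and 0.14, and Hif1a and Myc -0.02 and 0.03. Ppara was below the filter. In the astrocyte cultures Ppargc1a had 4 counts in the WT and 344 in the S89G-DMP1 library (log2 ratio 5.70), while the median of the nuclear subunits was 0.018, and the other 11 regulators lay between -0.88 and 0.63.

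The promoters of the nuclear subunits were compared with those of all genes in the RefSeq table of GRCm38.p6, from 250 bases before to 50 after the start. Windows were found for 68 of the 84. Both strands were searched for 4 motifs. The motif of NRF1, in which any base was allowed at a middle position, stood in 17 of the 68 (25%, against 5.19% of 27025 genes). The YY1 motif AAGATGGC stood in 10 (14.7% against 3.19%). The ETS motif CCGGAAGT of GABPA was in 5 (7.35% against 4.31%), and the SP1 motif GGGCGG in 28 (41.2% against 38.2%). Genes with several windows counted once if any window held the motif. A match of letters is not evidence of binding. The window of Cox8a, the single nuclear call (chr19:7217567-7217866, minus strand), held 2 ETS matches, and that of Sdha, a gene with a narrow interval around 0 (chr13:74350191-74350490, minus strand), held 3 NRF1 matches, in capitals.
Cox8a: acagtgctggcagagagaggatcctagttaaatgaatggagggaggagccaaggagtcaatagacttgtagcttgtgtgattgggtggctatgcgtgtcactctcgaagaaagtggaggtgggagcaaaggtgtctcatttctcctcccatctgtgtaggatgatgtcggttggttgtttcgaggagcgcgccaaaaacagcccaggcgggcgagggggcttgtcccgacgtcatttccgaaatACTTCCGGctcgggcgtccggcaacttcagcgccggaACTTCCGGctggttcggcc
Sdha: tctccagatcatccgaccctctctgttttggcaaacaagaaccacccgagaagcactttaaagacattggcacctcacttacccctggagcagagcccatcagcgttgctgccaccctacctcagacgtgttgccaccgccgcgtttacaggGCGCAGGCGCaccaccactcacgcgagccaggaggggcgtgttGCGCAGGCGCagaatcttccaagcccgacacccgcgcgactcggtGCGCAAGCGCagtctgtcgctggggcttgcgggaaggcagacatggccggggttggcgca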

How the data were processed

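RNA of 6 NSC and 2 astrocyte libraries was analysed, grouped by the genotype in their labels. The authors deposited unnormalised gene counts for both cell types, with TPM values beside them for the NSCs and FPKM values for the astrocytes. The submitters' processing notes name HISAT2, StringTie, featureCounts and GRCm38 for the NSCs and TopHat 2.0.9 and Bowtie 2.0.6 for the astrocytes, whose genome build is not given in the sources used here. The library kit is not described as keeping the strand, so overlapping genes such as mt-Nd5 and mt-Nd6 may share reads. The deposited TPM list 5 subunits with a mean of at least 50 counts at 0 in all 6 NSC libraries, and the deposited FPKM served for levels between genes and as an alternative.

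NSC counts were compared with edgeR 4.0.16 in R 4.3.3 (filterByExpr, TMM, quasi-likelihood test, Benjamini-Hochberg adjustment over all tested genes, threshold 0.05), after the procedure had been tested on simulated data. For the astrocytes, with 1 library per genotype, no test was made, and log2 ratios with a prior count of 2 are given. Exact binomial intervals cover counting error only. Symbols and positions came from GENCODE M21, to which 47310 NSC and 40052 astrocyte gene identifiers matched. Copies were sought with blastn among its transcripts (at least 98% identity over at least 75 bases).

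The members and lists were chosen with earlier results of these data known. Named were all mt- genes, called nuclear subunits, the 2-fold and the 5 highest and lowest nuclear astrocyte ratios, isoform pairs, complex II, the core of complex I, all biogenesis regulators and up to 4 called genes per list. Alternatives were DESeq2 1.42.0, limma 3.58.1 on TPM, other scalings and filters, a replicate block, a length trend, FPKM, other prior counts and thresholds, and each library left out in turn. Adding the counts of nuclear copies, shares of the mt- reads, and the interval widths of 1.5-fold and 1.2-fold were chosen after the data had been seen, and the narrower width replaced a slightly wider one, under which more subunits and more of all genes had such intervals. The values of 1 gene are not reported here. Uqcrfs1, Uqcrc1, Atp5a1, Atp5b, Atp5s and the subunits with wide intervals were named after their values were seen.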

Additional observations from a re-analysis of the deposited data

How the results depend on the processing

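In NSCs the number of nuclear subunits called lower (1) became 0 with no filter, with DESeq2 and with limma on log2(TPM + 1) and log2(TPM + 0.1), and 2 with the length trend removed, and it was 0 to 2 with each library left out, where the number called higher was also 0 to 2. Without S89G-DMP1 library 1, 2 were called higher, and without WT library 1, 2 were called lower. The number of mt- genes called higher (1) became 2 with no filter and 0 with the length trend removed, DESeq2 and both limma fits, and was 0 to 2 with each library left out. The number called lower (3) became 1 with DESeq2 and 0 with both limma fits, and was 2 to 4 with each library left out. The TPM fits hold only 2 mt- genes, since most are listed at 0 TPM, and gave medians of -5.55 and -7.21. For the same reason of erratic TPM values, from 13.5 to 1214 among libraries, Cox8a was at 2.56 and 2.59 in those fits, opposite to the counts. Medians with each library left out ran from -0.041 to 0.033 for nuclear and from -0.13 to 0.026 for mt- genes.

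In astrocytes the nuclear subunits at least 2-fold higher (1) became 2 at a 1.5-fold threshold, where Atp5h (-0.74) also joined those lower. Those at least 2-fold lower (2) became 0 with a minimum of 50 counts in one library or of 10 in both, since both genes had few counts, and 1 on log2(FPKM + 1). The nuclear median (0.018) was 0.31 by library size alone, 0.29 on log2(FPKM + 1) and 0.31 on log2(FPKM + 0.1). The mt- genes at least 2-fold lower (1) became 0 by library size alone, on both FPKM scales and with the copies' counts added, and 3 at 1.5-fold. Their median (-0.42) was -0.13 by library size alone, -0.13 on both FPKM scales and -0.38 with a minimum of 50 counts. With protein-coding reads as the denominator the mt- share was 2.405% in WT and 2.298% in S89G-DMP1 astrocytes. Among single genes and alternatives, 17 NSC values lost a call, 5 gained one and 2 reversed, both of Cox8a in the limma fits.

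The replicate numbers did not pair the samples (correlation of deviations -0.017 to 0.028 between same-numbered libraries, -0.022 to 0.032 between others). With the number as a replicate block, 1843 genes were called in place of 1772, and the block changed no count of subunits, with medians of -0.0056 for nuclear and -0.036 for mt- genes. At a depth of 2354615 to 2588130 reads, 8 of the 97 subunits had too few counts for a test in NSCs.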
